A study of Saccharomyces cerevisiae with 24 samples.

Results

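Regions at nuclear tRNA genes were followed in chromatin immunoprecipitation (ChIP) sequencing of the transcription factor Yrr1 in the yeast Saccharomyces cerevisiae. A region of the authors' deposited region table was taken as a member when it overlapped an annotated nuclear tRNA gene by at least 1 bp on the sacCer3 genome build. By this rule 218 of the 1711 regions were members. They held 225 of the 275 nuclear tRNA genes (81.8%), with 1 gene in 211 regions and 2 genes in 7. The other 50 tRNA genes lay in no region of the table and have no value here. The table holds only regions that the authors listed, so the levels below describe listed regions. In the peak lists used here, 30 members overlapped no peak of ChIP over input in any library. Peaks of input over ChIP were listed at 5 members.

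All cells were of strain S96 with its own YRR1 gene deleted (yrr1Δ) and carried 1 of 3 Myc-tagged YRR1 alleles: that of strain YJM789, that of S96, or that of S96 altered by I775E (S96-I775E). Each was grown for 2.5 h in the rich medium YPD, either plain or with 4NQO (4-nitroquinoline-N-oxide, a drug that damages DNA) at 0.25 µg/ml. Each of the 6 groups had 3 anti-Myc ChIP libraries and 1 input library. The submitters' texts speak of triplicates in one place and of a pair of cultures in another, so the spread behind each p-value is that between libraries and may be technical in part. The 3 ChIP libraries of a group share 1 input, so a difference between groups and a difference between their inputs cannot be told apart. No untagged strain was analysed here, so how much of the signal depends on the tag was not tested.

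Transfer RNA genes are short and are transcribed by RNA polymerase III. Promoter elements inside the gene, the A box and the B box, are bound by the factor TFIIIC, which places TFIIIB just upstream of the gene, and TFIIIB recruits the polymerase. In budding yeast, retrotransposons of several Ty families insert close upstream of such genes, and many tRNA genes occur as identical copies on different chromosomes. Yrr1 is a zinc cluster protein that activates multidrug resistance genes through RNA polymerase II promoters. tRNA genes are among the loci that often appear in ChIP of unrelated yeast proteins.

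The member tRNA genes were 71 to 133 bp long (median 73 bp) and their regions 300 to 2657 bp (median 648.5 bp). The gene of 194 members has at least 1 identical copy elsewhere, and how the authors treated reads that match several places is not stated in the sources used here. The sequences of 8 genes described in the comparisons below are shown, 5′ to 3′ on the gene's strand, from the RefSeq R64 genome (sacCer3). The capitals mark the letters GTTCGANNC of the B box. Alanine TGA1 (chrI:166267-166339, plus strand) has 5 identical genes and methionine EMT1 (chrIV:1175829-1175901, plus) also 5. Proline SUF8 (chrVIII:388893-388995, minus) has 3, with an intron, and serine SUP17 (chrIX:248850-248931, plus) has 3. Leucine YNCK0004W (chrXI:84208-84291, plus) has 7, arginine YNCJ0011W (chrX:355374-355445, plus) 11, valine YNCM0023C (chrXIII:420588-420661, minus) 13 and isoleucine YNCN0015W (chrXIV:602312-602385, plus) 13. The YNC names are the annotation's own identifiers.
TGA1: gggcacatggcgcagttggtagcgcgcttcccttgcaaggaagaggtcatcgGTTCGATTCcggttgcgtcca
EMT1: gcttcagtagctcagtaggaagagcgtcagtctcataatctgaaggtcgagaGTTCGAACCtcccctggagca
SUF8: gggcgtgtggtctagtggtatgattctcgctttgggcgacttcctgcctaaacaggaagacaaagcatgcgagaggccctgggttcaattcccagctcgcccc
SUP17: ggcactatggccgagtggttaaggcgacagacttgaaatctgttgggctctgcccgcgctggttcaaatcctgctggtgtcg
YNCK0004W: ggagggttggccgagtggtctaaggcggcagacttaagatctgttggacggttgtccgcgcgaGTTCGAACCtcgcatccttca
YNCJ0011W: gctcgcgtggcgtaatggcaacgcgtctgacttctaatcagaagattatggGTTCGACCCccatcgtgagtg
YNCM0023C: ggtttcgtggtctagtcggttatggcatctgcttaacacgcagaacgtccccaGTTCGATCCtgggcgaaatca
YNCN0015W: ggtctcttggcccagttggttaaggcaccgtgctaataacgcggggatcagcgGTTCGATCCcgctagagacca
SUF8 and SUP17 carry no capitals because these exact letters do not occur in them. In 300 bp windows on both strands, the letters GTTCGANNC occurred at 166 of the 218 members (76.1%) and at 29 of the 1474 nuclear regions without a tRNA gene (1.97%). They are part of the tRNA gene itself, so this describes how the regions were chosen.

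3 deposited values are used. The ChIP signal is the coverage difference, ChIP less input, at the strongest point of a region, the surroundings are the mean of this difference around that point, and the rise is the signal less the surroundings. A high rise can therefore come from a high point or from low surroundings. The strongest point was placed separately in each library, so groups can be compared at different places of a region. The values are in the authors' coverage units, whose scaling between libraries is not stated in the sources used here, and read depth is unknown. Values were listed in all 18 ChIP libraries for 185 members.

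Signal at tRNA genes was higher than at other nuclear regions in nearly all libraries. The median rise over the members lay between 28.1 and 45.7 per library, against 23.0 to 31.5 over the 1474 nuclear regions without a tRNA gene, and was the higher in 18 of 18 libraries. The median ChIP signal lay between 36.8 and 64.1, against 15.6 to 50.2, and was the higher in 16 of 18. The exceptions were replicates 1 and 2 of YJM789 in 4NQO, with 39.8 against 50.2 and 44.8 against 48.0. In these libraries the regions without a tRNA gene had their highest medians of all libraries. The order of the groups differed from that of the pooled other regions. tRNA genes had their highest mean signal in S96 in YPD, at 54.6 ± 9.76 (SD, n = 3 libraries), where the other regions had their lowest, 16.7. YJM789 in YPD had the lowest at tRNA genes, 39.2 ± 2.23, and did not overlap S96 in YPD. YJM789 in 4NQO had 45.0 ± 5.25, S96 in 4NQO 51.0 ± 8.61, S96-I775E in YPD 50.6 ± 3.72 and S96-I775E in 4NQO 47.9 ± 3.32. These 4 groups overlapped one another.

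Among regions with a MACS2 ChIP peak in at least 1 library, a choice that itself uses these libraries, 188 members stood against 687 others. The median rise of the members was the higher in 17 of 18 libraries (28.8 to 47.3 against 23.8 to 36.7) and the ChIP signal in 16 of 18, while the surroundings were higher in 9 of 18. Against 129 regions at cytosolic ribosomal protein genes, which are highly transcribed by RNA polymerase II, the members' median rise was the higher in 12 of 18 libraries and the signal in 14. Against 34 regions at snRNA and snoRNA genes the counts were 17 and 15. Against 9 regions at other RNA polymerase III genes, such as those of 5S rRNA, they were 8 and 6. Neither tRNA genes nor those other polymerase III genes were thus the higher throughout. The libraries share their regions and inputs, so these counts are given with no test. Regions at ribosomal protein genes and at snRNA and snoRNA genes also had their highest mean signal in S96 in YPD (50.7 and 53.0). Their lowest was likewise in YJM789 in YPD (37.6 and 36.95). The other RNA polymerase III genes had their lowest in S96 in YPD (29.3).

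**Figure D1:**
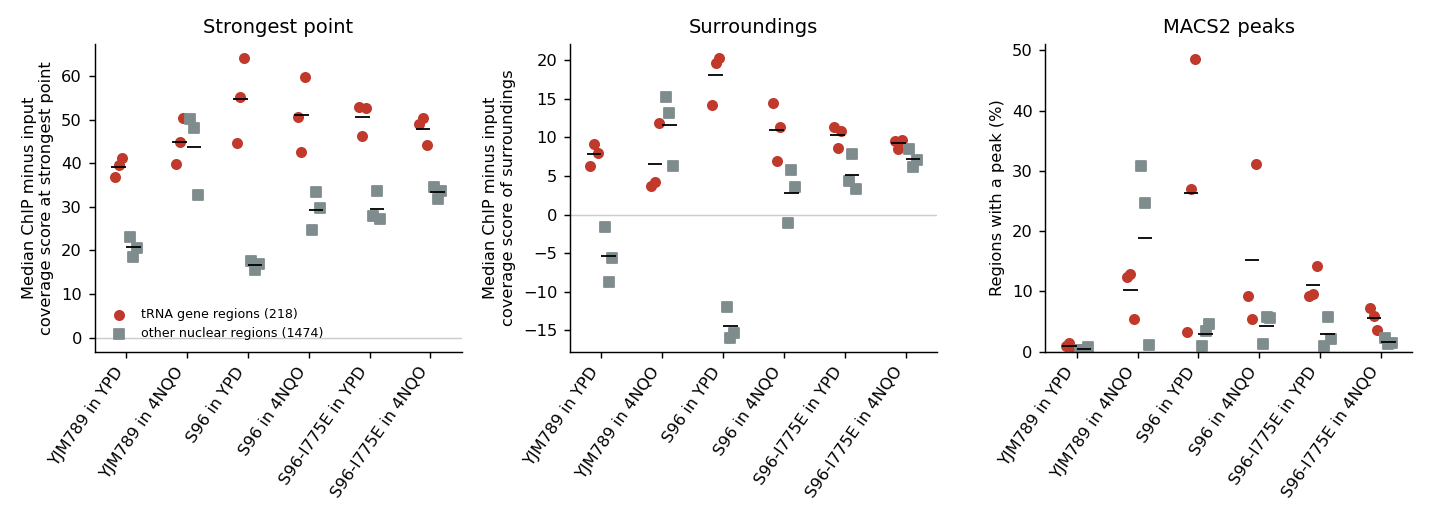
Median ChIP signal, median surroundings (both in the authors' coverage units) and percent of regions with a MACS2 ChIP peak in each of the 18 ChIP libraries, for 218 tRNA gene regions (red circles) and 1474 other nuclear regions (grey squares); black bars are group means. The 2 classes are closest in signal in YJM789 in 4NQO and farthest apart in S96 in YPD.

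The strongest point lay on or just upstream of the tRNA gene. Its median distance from the gene's centre was −35 to −68.5 bp per library, where negative is upstream of the gene's direction of transcription. Between 48.8% and 76.9% of points per library fell within 100 bp of the centre, where an even spread over each region would put 30.7%. Upstream points made up 62.9% to 82.4%, and points inside the gene 13.5% to 34.1%. A deposited table of the opposite difference, input minus ChIP, had 1.72% to 8.42% of its points within 100 bp of the centre. It holds the same difference with the sign turned, so this is not a separate observation. The 454 strongest MACS2 summits, 1 for each member and library with a peak, had a median of −81.5 bp, and 349 of their peaks (76.9%) covered the gene. Regions themselves are centred near the gene, with a median of −60 bp and 61.5% of centres within 100 bp. What the placing of the regions contributed to the distances above was not tested.

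**Figure D2:**
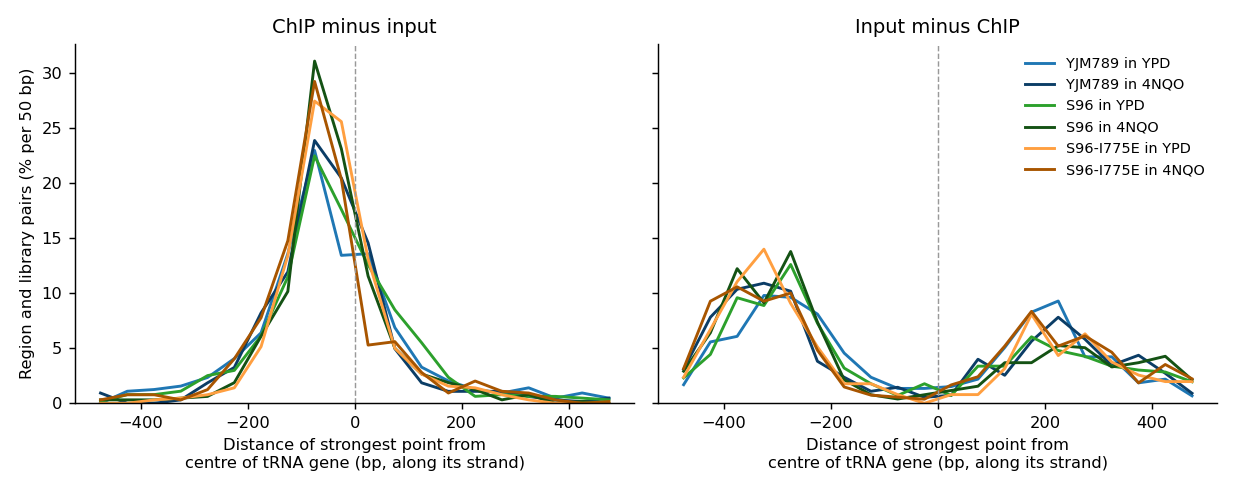
Percent of pairs of member and library per 50 bp bin of the distance between the strongest point and the tRNA gene's centre (bp, negative is upstream), for ChIP minus input and for input minus ChIP, with the libraries of each of the 6 groups pooled. ChIP minus input has its maximum just upstream of the centre, and input minus ChIP dips there.

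Peaks by MACS2 were few per library and differed widely between libraries of one group. Peaks were listed at 2, 3 and 1 members in YJM789 in YPD, at 27, 28 and 12 in YJM789 in 4NQO, and at 7, 59 and 106 in S96 in YPD. They were listed at 20, 12 and 68 members in S96 in 4NQO, at 20, 21 and 31 in S96-I775E in YPD, and at 16, 13 and 8 in S96-I775E in 4NQO. Replicate 3 of S96 in YPD had the most members with a peak and replicate 3 of S96 in 4NQO the next most, while YJM789 in YPD had almost none. Enrichment at these peaks was modest, from 1.501 to 3.12 fold with a median of 1.78, and 61 of the 454 pairs of member and library reached 2 fold. At 188 members a peak was listed in at least 1 library and at 30 in none.

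A member was called bound in a group when at least 2 of its 3 libraries listed a peak there. No member was bound in YJM789 in YPD, where 0.236% of all nuclear regions were. In YJM789 in 4NQO 18 members were bound, and 15.5% of all nuclear regions. In S96 in YPD the counts were 46 members and 4.67% of all nuclear regions, and in S96 in 4NQO 18 members and 3.49%. In S96-I775E they were 21 members and 2.60% in YPD and 10 members and 1.83% in 4NQO. Bound members were thus a smaller share of the 218 than of all nuclear regions in YJM789 in 4NQO, and a larger one in S96 and S96-I775E in both media. This was not particular to tRNA genes. At snRNA and snoRNA genes the shares were 32.4% in S96 in YPD, 11.8% in S96 in 4NQO and 11.8% in S96-I775E in YPD. The members had 21.1%, 8.26% and 9.63% there. In S96-I775E in 4NQO the snRNA and snoRNA genes had 0% and the members 4.59%. Ribosomal protein genes had 10.1% in S96 in 4NQO and less than the members in the other groups of S96 and S96-I775E. Over the 6 groups 86 members were bound in at least 1, beside 21.3% of all nuclear regions, and none in every group.

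Single libraries set these counts. Without replicate 2 or without replicate 3, S96 in YPD had 5 bound members. YJM789 in 4NQO had 6 without replicate 1 or without replicate 2. S96 in 4NQO had 7 without replicate 1 and 2 without replicate 3. S96-I775E in YPD had 11, 8 and 6 without replicates 1, 2 and 3, and S96-I775E in 4NQO had 4 without replicate 1 and 3 without replicate 2. A peak in the lone remaining pair of libraries is a stricter rule than 2 of 3, which alone lowers such counts. Input was listed above ChIP at 5 members, among them SUP61 in 6 libraries and EMT5 in 3. In the authors' deposited table of CisGenome peaks per group, members with a peak numbered 2, 5, 28, 58, 24 and 8, in the order YJM789, S96 and S96-I775E with YPD before 4NQO in each. That table lists 15, 282, 121, 275, 98 and 250 peaks in all, and at members its false discovery rate was below 1 for 22 peaks in S96 in 4NQO and 5 in S96-I775E in 4NQO and for 0 in the other 4 groups.

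The peaks recurred most at SUP17, a serine tRNA gene, which had one in 10 of the 18 libraries. Its fold enrichment was 3.12, 2.997 and 2.36 in YJM789 in 4NQO, 2.34, 2.34 and 2.28 in S96 in 4NQO, and 2.01 and 1.85 in replicates 1 and 3 of S96-I775E in 4NQO. In YPD it was listed in replicate 1 of YJM789 (1.601) and replicate 3 of S96 (1.80) alone. SUP17 thus had a peak in 8 of the 9 libraries in 4NQO and in 2 of the 9 in YPD. Its strongest point lay at a median of 245.5, 249.5 and 241.5 bp downstream of the gene's centre in the 3 groups in 4NQO, outside the gene. In YPD the medians were 46.5, 89.5 and 158.5 bp, in the same order of alleles. EMT1, which encodes an elongator methionine tRNA, came next with 9 libraries and folds of up to 2.09. Its region also overlaps the coding gene ATP22. YNCE0010W (arginine), whose region reaches into GCN4, and YNCJ0023C (serine) had peaks in 8 libraries, and YNCM0027W (leucine) and TRN1 (proline) in 7.

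By mean rise over those of the 18 libraries with a value, the members ranged from 14.7 to 67.9 with a median of 38.5. Highest was EMT5, another elongator methionine tRNA gene (region chrX:390700-392273), at 67.9, followed by SUP17 (62.9), YNCL0032C (leucine, 60.4), YNCP0018C (cysteine, 59.2), SUP61 (serine, 58.1) and TGA1 (alanine, 57.8). In EMT5 the rise was 51.0, 60.2 and 61.1 in YJM789 in YPD and 49.8, 64.5 and 65.5 in YJM789 in 4NQO. It was 62.7, 56.4 and 112 in S96 in YPD and 77.1, 72.6 and 76.9 in S96 in 4NQO. For S96-I775E it was 73.7, 70.8 and 64.8 in YPD and 69.0, 83.1 and 50.4 in 4NQO. The groups mostly overlapped. By mean ChIP signal EMT5, at 58.5, was below SUP17 (74.7), TGA1 (63.3) and EMT1 (62.3), and its mean surroundings were negative in 5 of the 6 groups, down to −30.8 in S96 in YPD.

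All 20 amino acids had members, and their levels overlapped widely. Every gene for glycine (21), serine (19), proline (12), histidine (7) and cysteine (4) lay in a region, against 9 of 16 for threonine, 11 of 16 for aspartate and 11 of 16 for alanine. The family median of the mean rise was highest for tryptophan (45.6 over 4 regions), histidine (45.6 over 7) and leucine (42.6 over 18). Lowest were phenylalanine (29.6 over 7 regions), asparagine (32.0 over 6) and aspartate (34.7 over 7). The leucine regions alone ran from 16.0 to 60.4, wider than the spread of the family medians. At the 11 alanine regions the median ChIP signal was 37.5 in YPD and 64.2 in 4NQO with YJM789, 52.7 and 64.4 with S96, 48.0 and 53.1 with S96-I775E, higher in 4NQO for all 3 alleles. The medians for tryptophan and phenylalanine were also higher in 4NQO for all 3 alleles. Glycine had 11 of 21 regions bound in some group, leucine 9 of 18, serine 8 of 19 and valine 7 of 15, while asparagine had 1 of 6 and phenylalanine 1 of 7.

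**Figure D3:**
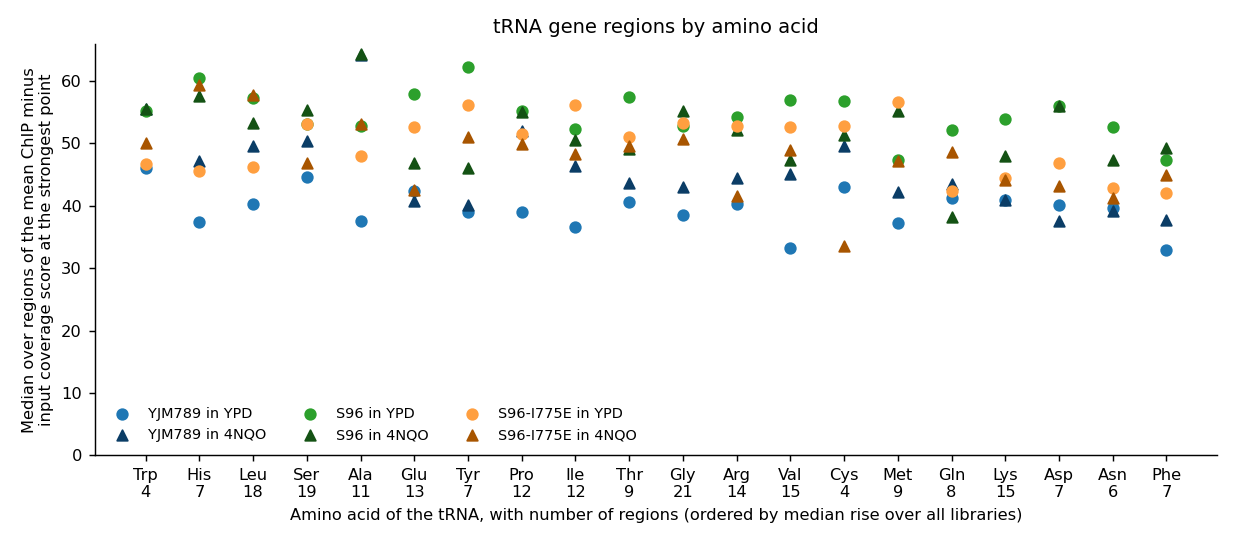
Median over the regions of each amino acid of the mean ChIP signal (authors' coverage units) in the 6 groups; circles are YPD and triangles 4NQO, and the number of regions stands by each amino acid. The 11 alanine regions are at 37.5 in YPD and 64.2 in 4NQO with the YJM789 allele.

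Regions with identical genes did not have identical rises. In 27 sets of at least 3 regions that hold the same tRNA gene sequence, 175 regions in all, the SD of the mean rise was 8.75 over all these regions and 8.46 within sets. Sharing the gene's sequence thus narrowed the spread of the rise little. The spread of the ChIP signal itself within sets was not computed. The 5 regions of the EMT sequence, printed above for EMT1, ran from 18.4 at EMT2 to 67.9 at EMT5. The 3 with the SUP17 sequence ran from 21.5 at SUP16 to 62.9 at SUP17 itself. The 16 regions of 1 glycine gene sequence ran from 28.6 to 54.99, and 11 of the valine sequence shown for YNCM0023C from 21.3 (YNCJ0015W) to 51.3 (YNCG0037W). Reads inside identical genes cannot be placed by sequence, and what their placement contributed to these values was not tested.

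**Figure D4:**
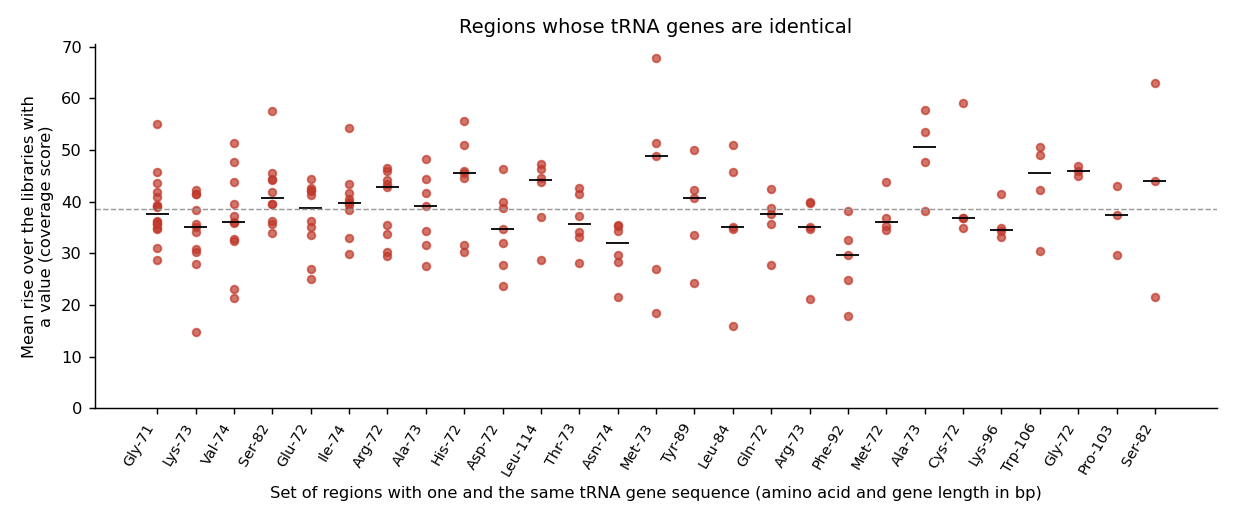
Mean rise (authors' coverage units) of each region over those of the 18 ChIP libraries with a value, by set of identical tRNA gene sequence (27 sets of at least 3 regions). The dashed line is the median of all members, 38.5. The 5 regions of the EMT set run from 18.4 to 67.9 and the 3 of the SUP17 set from 21.5 to 62.9.

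Other features of the regions gave small differences in the median of the mean rise. These and the bound counts are descriptions with no test. The letters TCCGCG, searched on both strands in 300 bp windows because they fit the recognition sequence known for Yrr1, were found at 19 members (8.72%) and at 51 other nuclear regions (3.46%). In 12 of the 19 they lie inside the tRNA gene nearest the region's centre, 5 for leucine, as printed for YNCK0004W, and 7 for aspartate. Other nearby tRNA genes, such as aspartate YNCJ0012W beside YNCJ0011W, were not searched, so 12 is a lower bound for letters inside a tRNA gene. The median of the mean rise was 35.0 with TCCGCG and 38.9 without, and 9 of 19 against 77 of 199 members were bound in some group. Members with an intron had a median of 39.5 and those without 38.5. The 124 members that overlap a long terminal repeat or transposon had 38.6 and the others 38.5. Of the 94 members that also overlap a coding gene 46 were bound in some group (48.9%), against 40 of 124 (32.3%). The width of the regions was not taken into account in these shares.

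Differences between groups were tested with limma on log2(rise + 1) in one fit over all 18 libraries and over the 1350 regions for which each group had 2 or more values, with Benjamini-Hochberg adjustment over the 1350 at 0.05. Of the members 208 were tested and 10 were not. Over the 9 comparisons of a pair of groups, 53 of the 208 were called in at least 1 (25.5%), against 18.5% of all tested regions, and 155 in none. These comparisons share groups, and a call needed no MACS2 peak at the region. The same fit on the ChIP signal without subtracting the surroundings is given as a second measure, chosen after the data were seen. Of 92 calls on the rise, 64 higher and 28 lower, the signal differed in the same direction in 88 and was itself called in 39.

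With the YJM789 allele, the rise was higher in 4NQO than in YPD at 20 members and lower at 1. These were 10.1% of the tested members, beside 6.81% of all tested regions called in either direction (6.15% higher and 0.667% lower). The median difference was 0.31 (log2) over the members and 0.25 over all tested regions. With library medians set equal the members split into 7 higher and 3 lower. The call count was 21, and it was 10 without replicate 1 or without replicate 2 of YJM789 in YPD, 12 without replicate 3, and 10 and 8 without replicates 1 and 2 of YJM789 in 4NQO. On the ChIP signal 33 members were higher and 6 lower, beside 53.7% of all tested regions (50.9% higher and 2.81% lower), with a median difference of 5.43 over the members and 19.8 over all. The difference in signal at the median tRNA gene was thus smaller than at the median region, and with library medians set equal 4 were higher and 49 lower.

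EMT1 had a rise of 28.3, 10.97 and 21.9 in YPD and of 75.0, 75.7 and 85.1 in 4NQO with this allele. The groups did not overlap, and the difference was 1.99 ± 0.34 (log2, SE; limma adjusted p = 0.000415). Its ChIP signal rose from a mean of 37.3 to 85.0 (adjusted p = 0.000151), and in the authors' second parameter set, marked m2, the difference was 1.26 with an adjusted p of 0.0688. SUP17 had 43.6, 38.1 and 46.9 in YPD and 101, 93.4 and 104 in 4NQO, without overlap and with a difference of 1.20 ± 0.28 (adjusted p = 0.00757). The leucine gene YNCK0004W, in which TCCGCG lies, had 34.3, 19.7 and 24.8 in YPD and 90.6, 82.1 and 69.9 in 4NQO (1.61 ± 0.34, adjusted p = 0.00354). At all 3 the ChIP signal was called too. The calls at EMT1 and YNCK0004W held without each library in turn.

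YNCO0029C, an alanine gene identical to TGA1 (region chrXV:854027-854775), had a rise of 27.6, 28.7 and 23.9 in YPD and of 134, 105 and 57.4 in 4NQO with the YJM789 allele (1.77 ± 0.32, adjusted p = 0.000885). Its surroundings were 14.1, 4.0 and 14.3 in YPD and −40.7, −30.7 and −8.0 in 4NQO, and the signal at the strongest point rose from 37.5 to 72.4 (adjusted p = 0.00194). Both parts of the rise thus differed between the media. MACS2 listed no peak at YNCO0029C in any library with the YJM789 allele. Its peaks were in replicates 2 and 3 of S96 in YPD and replicates 1 and 3 of S96 in 4NQO. YNCL0037W, another leucine gene (region chrXII:731764-732357), had 12.8, 29.8 and 21.3 in YPD and 72.8, 70.2 and 63.3 in 4NQO (1.72 ± 0.34, adjusted p = 0.00191), with mean surroundings of 7.3 and −11.02. Both calls held without each library in turn. The 1 lower member was YNCH0002C (valine), at −1.27 ± 0.39 (adjusted p = 0.0482), a call lost without any 1 of 10 libraries.

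With the S96 allele, 7 members were higher and 1 lower in 4NQO, beside 2.59% of all tested regions in either direction (1.41% higher and 1.19% lower). The median difference was 0.09 over the members and −0.13 over all. The count of 8 fell to 5 and 4 without replicates 1 and 3 of S96 in YPD and to 3 without replicate 3 of S96 in 4NQO. TGA1 had a rise of 18.6, 25.6 and 19.2 in YPD and of 69.9, 97.4 and 108 in 4NQO. The groups were far apart, with a difference of 2.06 ± 0.37 (adjusted p = 0.00109), and the ChIP signal rose from 35.7 to 74.7 (adjusted p = 0.0021), with surroundings of 14.6 in YPD and −17.1 in 4NQO. The strongest point at TGA1 lay at a median of 273 bp from the gene's centre in YPD, downstream, and at −41 bp in 4NQO. SUF8 had 13.0, 20.0 and 29.1 in YPD and 59.4, 64.8 and 74.4 in 4NQO (1.69 ± 0.30, adjusted p = 0.00109). At SUF8, whose region also overlaps the coding gene DCD1, the signal itself went from 45.6 to 62.6 (adjusted p = 0.126) and the surroundings from 24.9 to −3.6. The strongest point at SUF8 lay at a median of 111 bp from the gene's centre in YPD and −45 bp in 4NQO. MACS2 listed a peak at SUF8 in 1 of the 18 libraries, replicate 3 of S96 in YPD (1.667 fold), and none in 4NQO. Both calls on the rise held without each library in turn.

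YNCN0015W (isoleucine) was higher in 4NQO with the S96 allele too, at 1.41 ± 0.28 (adjusted p = 0.00339), and the call was lost without replicate 3 of S96 in 4NQO (1.10). YNCK0014W (valine) was higher by 1.44 ± 0.32 (adjusted p = 0.00986), lost without replicate 1 of S96 in YPD (1.26) or replicate 3 of S96 in 4NQO (1.24). The lower member was YNCI0010C (aspartate), at −1.59 ± 0.39 (adjusted p = 0.0232), lost without replicates 1 or 3 of S96 in YPD or replicate 3 of S96 in 4NQO. On the ChIP signal 15 members were higher and 22 lower, beside 33.7% of all tested regions (26.1% higher and 7.56% lower), with a median of −2.48 over the members against 9.22 over all. The median tested region thus had more signal in 4NQO and the median tRNA gene region did not. The same held for the mean signal of other classes with this allele. At ribosomal protein genes it was 50.7 in YPD and 44.9 in 4NQO, and at snRNA and snoRNA genes 53.0 and 45.4. At the other RNA polymerase III genes it was 29.3 and 62.6. The signal count of 37 was 22 and 21 without replicates 2 and 3 of S96 in YPD and 21 without replicate 2 of S96 in 4NQO.

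With S96-I775E, 4 members were higher and 3 lower in 4NQO, beside 2.59% of all tested regions (1.93% higher and 0.667% lower). The medians were 0.01 over the members and 0.09 over all. Leaving out any 1 library of the compared groups left 1 to 3 calls. YNCL0037W had a rise of 28.7, 18.6 and 16.3 in YPD and of 39.1, 100.01 and 82.7 in 4NQO (1.69 ± 0.34, adjusted p = 0.00651), lost without replicate 2 in 4NQO (1.42). Its signal difference of 25.5 was not called (adjusted p = 0.0896), and its mean surroundings were 18.2 in YPD and −9.1 in 4NQO. SUP17 had 32.9, 34.02 and 38.8 in YPD and 104, 48.4 and 78.8 in 4NQO (1.05 ± 0.28, adjusted p = 0.0387), a call lost without any 1 library of S96-I775E other than replicate 2 in 4NQO. On the ChIP signal 2 members were higher and 2 lower, beside 2.74% of all tested regions (2.07% higher and 0.667% lower). That count of 4 was 12 without replicate 3 of YJM789 in 4NQO, and 1, 2 and 1 without replicates 1, 2 and 3 of S96-I775E in YPD. It was 0 by limma without replicate 1 and without replicate 3 of S96-I775E in 4NQO, where 29 and 32 members had an unadjusted p below 0.05.

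**Figure D5:**
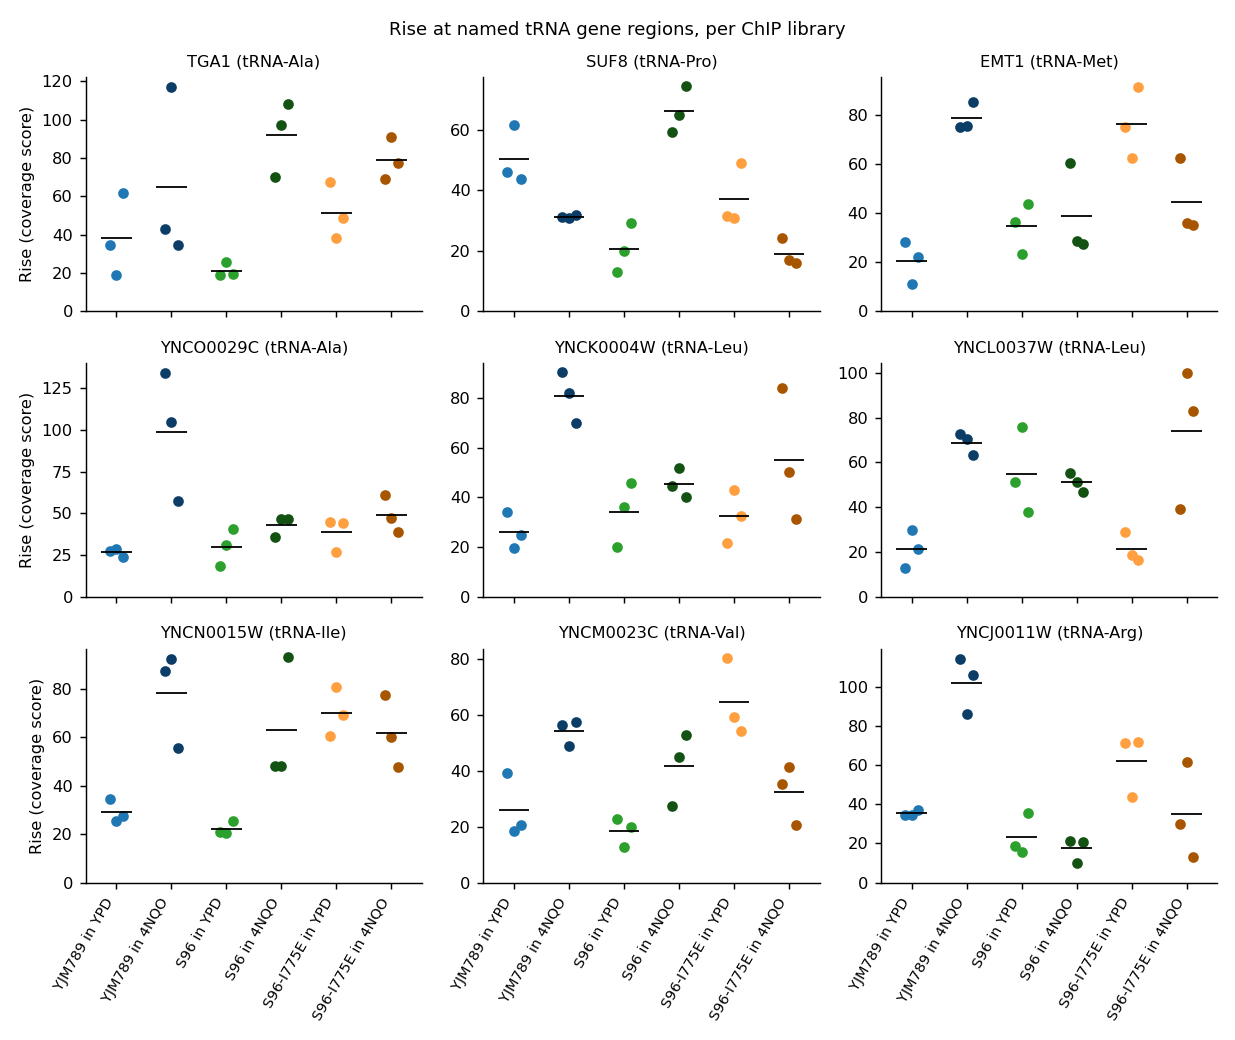
Rise (authors' coverage units) in each of the 18 ChIP libraries at 9 tRNA gene regions named in the text, by allele and medium; bars are group means. EMT1 is between 75.0 and 85.1 in YJM789 in 4NQO and between 10.97 and 28.3 in YJM789 in YPD.

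Between the YJM789 and S96 alleles in YPD, 2 members had a higher and 4 a lower rise with YJM789, beside 2.07% of all tested regions (0.519% higher and 1.56% lower). The median difference was −0.25 over the members and −0.19 over all, and the split with library medians set equal was 2 higher and 1 lower. The count of 6 was 1 without replicate 1 of YJM789 in YPD, 0 without its replicate 3 (37 members at an unadjusted limma p below 0.05), 1 without replicate 2 of S96 in YPD and 3 without its replicate 3. YNCL0039W, a serine gene (region chrXII:783678-784491), had a rise of 29.3, 21.5 and 16.2 with YJM789 and of 88.4, 45.9 and 70.4 with S96 (−1.56 ± 0.30, adjusted p = 0.00872). The alleles did not overlap there, and the call was lost without replicate 3 of YJM789 in YPD (−1.36). Its signal differed by −24.3 and was not called (adjusted p = 0.0634), and the mean surroundings were −1.2 against −22.8. The higher members were SUF8 and YNCG0030C, at both of which the signal was lower with YJM789, by −5.60 and −7.93 without a call, so that the measures had the same direction at 4 of the 6.

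The ChIP signal in YPD was lower with YJM789 than with S96 at 33 members and higher at none by limma at the adjusted threshold. 75 members passed an unadjusted p of 0.05, and 23 of the 208 differences were above 0. Among all tested regions 11.3% were called in either direction, 4.15% higher and 7.11% lower. The median difference was −15.3 over the members and 0.55 over all, and with library medians set equal 51 were lower and 0 higher. The count was 9 without replicate 2 of S96 in YPD, 4 without its replicate 3 and 53 without its replicate 1. It was 7 and 10 without replicates 1 and 3 of YJM789 in YPD, and 58 without replicate 3 of YJM789 in 4NQO, which enters through the shared spread.

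In 4NQO, 4 members had a higher and 3 a lower rise with YJM789 than with S96, beside 3.41% of all tested regions (3.04% higher and 0.370% lower), with medians of 0.01 and 0.18. With library medians set equal the split was 1 higher and 7 lower. The count of 7 was 4 without replicate 2 of YJM789 in 4NQO or replicate 3 of S96 in 4NQO. YNCJ0011W, an arginine gene with an aspartate gene, YNCJ0012W, in the same region, had a rise of 114, 85.9 and 106 with YJM789 and of 21.5, 10.2 and 20.5 with S96 (2.54 ± 0.40, adjusted p = 0.000228). Its surroundings were −31.6, −29.8 and −26.8 against 15.9, 29.2 and 36.1, and the signal at the strongest point was 72.7 against 44.5 (adjusted p = 0.0208). In the m2 set the difference was −0.51, the opposite direction. YNCL0039W was again lower with YJM789, at 32.1, 21.1 and 18.4 against 55.1, 61.5 and 64.1 (−1.34 ± 0.30, adjusted p = 0.0103), which held without each library in turn. In a fit of the compared groups alone the adjusted p was 0.0509. Its signal differed by −13.4 without a call (adjusted p = 0.243), and the mean surroundings were 17.8 against −5.2. Its strongest point lay at a median of −487.5 bp from the gene's centre with YJM789 and −89.5 bp with S96. On the signal 7 members were higher and 18 lower, beside 30.2% of all tested regions (26.9% higher and 3.33% lower). That count of 25 was 8 and 11 without replicates 1 and 2 of YJM789 in 4NQO and 12 without replicate 1 of S96 in 4NQO.

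The change I775E in the S96 allele was set against the S96 allele next. In YPD 12 members were higher and 8 lower with I775E, beside 6.81% of all tested regions (1.85% higher and 4.96% lower). The medians were 0.03 over the members and −0.24 over all, and with library medians set equal the members split into 30 higher and 1 lower. The count of 20 was 6 without replicate 2 of S96 in YPD and 10, 8 and 5 without replicates 1, 2 and 3 of S96-I775E in YPD. YNCM0023C, a valine gene, had a rise of 80.3, 59.4 and 54.2 with I775E and of 22.6, 12.6 and 19.8 with S96 (1.78 ± 0.34, adjusted p = 0.0014). YNCN0015W had 60.5, 80.9 and 69.3 against 20.7, 20.5 and 25.3 (1.62 ± 0.28, adjusted p = 0.00051). At neither gene did the alleles overlap, the ChIP signal was called too, and the calls held without each library in turn. The glycine gene SUF20 (region chrVI:161867-162469) was lower with I775E, at 26.04, 14.4 and 15.6 against 52.5, 53.3 and 83.9 (−1.72 ± 0.43, adjusted p = 0.0151), lost without replicate 3 of S96 in YPD or replicates 2 or 3 of S96-I775E in YPD.

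On the signal in YPD, 15 members were higher and 22 lower with I775E, beside 37.7% of all tested regions (30.0% higher and 7.70% lower), with medians of −6.28 over the members and 9.89 over all. The split with library medians set equal was 1 higher and 61 lower, opposite in balance to that of the rise. The count of 37 was 20 without replicate 3 of S96 in YPD and 16 without replicate 2 of S96-I775E in YPD. In 4NQO the rise was higher at 1 member and lower at 3, beside 1.85% of all tested regions (1.26% higher and 0.593% lower), and 1 call was left without replicate 1 of S96-I775E in 4NQO. SUF8 was lower, at 24.1, 16.8 and 15.9 with I775E and 59.4, 64.8 and 74.4 with S96 (−1.77 ± 0.30, adjusted p = 0.000465), with a signal of 34.8 against 62.6 (adjusted p = 0.0461). That call on the rise held without each library in turn. On the signal 1 member was higher and 4 lower, beside 5.85% of all tested regions (4.44% higher and 1.41% lower), and leaving out any 1 library of S96-I775E in 4NQO left 1 or 2. It left 3 and 1 without replicates 1 and 3 of S96 in 4NQO, 3 without replicate 3 of YJM789 in YPD or replicate 1 of S96-I775E in YPD, and 13 without replicate 3 of YJM789 in 4NQO. IMT2, which encodes an initiator methionine tRNA (region chrXVI:338790-339249), was lower with I775E at 18.3, 20.5 and 14.7 against 34.2, 51.9 and 56.5 (−1.34, adjusted p = 0.0173), and 4 single libraries each ended that call. MACS2 listed no peak at IMT2 in any library.

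Between S96-I775E and YJM789 in YPD, 10 members were higher and 2 lower with S96-I775E, beside 2.15% of all tested regions (1.48% higher and 0.667% lower). The medians were 0.35 over the members and −0.05 over all. With library medians set equal 17 were higher and 2 lower. The count of 12 was 1 and 4 without replicates 2 and 3 of YJM789 in YPD, and 4, 2 and 2 without replicates 1, 2 and 3 of S96-I775E in YPD. EMT1 had a rise of 75.2, 62.4 and 91.4 with S96-I775E and of 28.3, 10.97 and 21.9 with YJM789 (1.93 ± 0.34, adjusted p = 0.000719), without overlap and without losing the call when any library was left out. On the signal 16 members were higher with S96-I775E and none lower by limma, beside 8.37% of all tested regions (7.78% higher and 0.593% lower) and with 62 members at an unadjusted p below 0.05. With library medians set equal 1 was higher and 1 lower. That count was 5 and 7 without replicates 2 and 3 of YJM789 in YPD, 37 without replicate 3 of YJM789 in 4NQO, and 10, 9 and 10 without replicates 1, 2 and 3 of S96-I775E in YPD.

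In 4NQO 4 members had a higher and 3 a lower rise with S96-I775E than with YJM789, beside 3.85% of all tested regions (0.667% higher and 3.19% lower), and the split with library medians set equal was 10 higher and 2 lower. Leaving out replicate 2 of YJM789 in 4NQO or any 1 library of S96-I775E in 4NQO left 2 calls. YNCG0003C, a histidine gene (region chrVII:110430-111050), had 84.4, 77.5 and 79.0 with S96-I775E and 28.3, 31.1 and 25.8 with YJM789 (1.47 ± 0.33, adjusted p = 0.0122), which held without each library in turn. Its m2 value of 1.05 was not called, nor was its signal difference of 28.3 (adjusted p = 0.0574), and its mean surroundings were −2.0 against 21.7. On the signal 6 members were higher and 7 lower, beside 15.3% of all tested regions (2.07% higher and 13.2% lower), and the split with library medians set equal was 25 higher and 1 lower. That count of 13 was 8 without replicate 3 of YJM789 in YPD, 1, 3 and 34 without replicates 1, 2 and 3 of YJM789 in 4NQO, 4 without replicate 3 of S96-I775E in 4NQO, and 0 by limma without its replicate 2, where 32 members had an unadjusted p below 0.05. YNCJ0011W was lower, at 30.1, 61.4 and 12.9 against 114, 85.9 and 106 (−1.77 ± 0.40, adjusted p = 0.0122), lost without replicate 3 of S96-I775E in 4NQO (−1.22), and 0.86 in the m2 set. Its signal difference of −20.1 was not called (adjusted p = 0.129), and its mean surroundings were 17.8 against −29.4.

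The response to 4NQO itself was compared between alleles in the same fit. Between YJM789 and S96 it differed at 5 members upward and 4 downward, beside 3.93% of all tested regions (3.56% up and 0.370% down), and between S96-I775E and S96 at 5 upward and 6 downward, beside 2.59% (1.93% up and 0.667% down). With library medians set equal the splits were 0 up and 4 down, and 0 up and 8 down. SUF8 was the member for which both differences held without each library in turn. Its rise went up in 4NQO with the S96 allele, from a mean of 20.7 to 66.2, while its means in YPD and 4NQO were 50.5 and 31.2 with YJM789 and 37.2 and 18.9 with S96-I775E. The response differed from that of S96 by −2.35 ± 0.43 for YJM789 (adjusted p = 0.0027) and by −2.62 ± 0.43 for S96-I775E (adjusted p = 0.00203). On the ChIP signal the difference for YJM789 was −8.7 and was not called (adjusted p = 0.699), while that for S96-I775E was −44.0 (adjusted p = 0.0265). With YJM789 the mean signal at SUF8 was 40.0 in YPD and 48.3 in 4NQO, and the surroundings were −10.5 and 17.1. The 1 MACS2 peak listed at SUF8 was in S96 in YPD, where its mean rise was 20.7. The first count of 9 was 3 and 2 without replicates 1 and 3 of YJM789 in YPD, 4 without replicate 1 of YJM789 in 4NQO, 2 without replicate 3 of S96 in YPD, and 5 without replicate 1 or 3 of S96 in 4NQO. The second count of 11 was 4 without replicate 2 of S96 in YPD, 3 without replicate 3 of S96 in 4NQO, 6 and 5 without replicates 2 and 3 of S96-I775E in YPD, and 7 and 6 without replicates 1 and 3 of S96-I775E in 4NQO.

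Of the 208 tested members 29 were called in 1 of the 9 comparisons (13.9%) and 12 in at least 3 (5.77%), against 11.2% and 3.33% of all tested regions. YNCN0015W, YNCL0037W and YNCJ0011W were called in 4 each. At YNCN0015W the strongest point lay inside the gene in 11 of the 18 libraries, with a median 4.5 bp downstream of the centre. Its surroundings stayed between −15.7 and 10.4 in all libraries, so its rise followed its signal. At YNCL0037W the 3 libraries of YJM789 in YPD and the 3 of S96-I775E in YPD, 12.8 to 29.8, lay below the other 12, 37.8 to 100.01. At SUP17, the means in 4NQO of 99.5, 67.6 and 77.2 for YJM789, S96 and S96-I775E stood above those in YPD, 42.9, 55.1 and 35.2, and with S96 the libraries of the 2 media overlapped.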

How the data were processed

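Yrr1 ChIP was deposited for 18 ChIP and 6 input libraries, grouped by the labels' titles into 6 groups of allele and medium. The submitters' processing notes name Bowtie2 2.2.3, CASAVA 1.7, MACS2 2.1.0 and build sacCer3, without a role. Per the file headers, MACS2 peaks were called per ChIP library, under parameter sets mn and m2 that are not explained, with a pileup signal at the summit, a fold enrichment (ratio) and the −log10 of a p and of a q. Per the file headers, CisGenome peaks per group carry a log2 fold change and an FDR, a p-value type measure. The deposited region table gives, per region and library, the rise as a signal, and the coverage difference at the strongest point and around it as scores that can be below 0; the rise equals their difference within 1.0e-12. Of the deposited value columns, 10 were not used. Read depth is unknown, so no counting interval is given. Input minus ChIP points had the opposite sign of the main table's at 67 of 67 shared positions, within 0.1.

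The mn set was used. Members, lists and tests were chosen with earlier results of these data known. Annotation was matched with Python 3.11.15 (pandas 2.3.3, numpy 2.4.6), and limma 3.58.1 (R 4.3.3, empirical Bayes and trend, pseudocount 1, p adjusted by Benjamini-Hochberg over 1350 regions) tested 9 pairs of groups and 2 differences in response; it was tested on simulated data. Named regions were the 6 with the highest mean rise, the 6 with a MACS2 peak in most libraries, up to 4 called in each direction per comparison, up to 4 per difference in response, and SUF8; those described are a selection. Tests and alternatives include leaving out each library, other scalings, the m2 set, a replicate block and the second measure. Same-numbered libraries of different groups correlated between −0.066 and 0.070 in their deviations, so the numbers were not taken as pairs.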

Additional observations from a re-analysis of the deposited data

Results flagged for a closer look

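At 8 results of single members the response to 4NQO differed between alleles in limma's test of that difference, on log2(rise + 1) with Benjamini-Hochberg adjustment over 1350 regions. Up to 4 members for each of the 2 contrasts are given. Against S96, the response with YJM789 differed by −2.35 at SUF8 (adjusted p = 0.0027), by −2.01 at YNCJ0002C (glutamate, adjusted p = 0.031), by 1.87 at EMT1 (adjusted p = 0.0283) and by 1.77 at YNCL0037W (adjusted p = 0.0366). The rise at SUF8 held without each library in turn, while on the ChIP signal the difference was −8.70 and was not called (adjusted p = 0.699). MACS2 listed no ChIP peak at YNCJ0002C in any library, and 1 at SUF8, in S96 in YPD. EMT1 and YNCJ0002C were each lost without any 1 of 6 libraries, with values of 1.5 to 1.91 and of −1.90 to −1.72, and YNCL0037W without any 1 of 8, at 1.46 to 1.83.

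Against S96, the response with S96-I775E differed by −2.62 at SUF8 (adjusted p = 0.00203), by −2.52 at YNCE0028C (arginine, adjusted p = 0.0383), by −2.26 at IMT2 (adjusted p = 0.00713) and by 2.19 at YNCH0002C (valine, adjusted p = 0.0339). SUF8 and IMT2 held without each library in turn, and in the m2 set IMT2 was at −1.92 and was not called (adjusted p = 0.0823). YNCE0028C and YNCH0002C were each lost without any 1 of 6 libraries, at −2.58 to −1.90 and at 1.83 to 2.16. The rise at IMT2 was 26.7, 21.4 and 20.7 in YPD and 34.2, 51.9 and 56.5 in 4NQO with S96, and 51.3, 30.5 and 54.2 in YPD and 18.3, 20.5 and 14.7 in 4NQO with S96-I775E. In each allele the 2 media did not overlap, and the order was opposite. MACS2 listed no ChIP peak at IMT2, YNCE0028C or YNCH0002C in any library.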

How the results depend on the processing

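Read depth is unknown, and 3 libraries with 1 shared input per group limit every comparison. Of 63 named results 16 kept their call with every library left out, 13 under every other setting but the ChIP signal, and 11 under both. Counts below are of members called.

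With library medians set equal, the rise gave 3 calls for YJM789 against S96 in YPD, 31 for S96-I775E against S96 in YPD, 19 and 12 for S96-I775E against YJM789 in YPD and 4NQO, 10 for the response of YJM789 and 4 for the difference in response of YJM789 and S96. The ChIP signal then gave 51 and 48 for YJM789 against S96, 62 and 8 for S96-I775E against S96, 2 and 26 for S96-I775E against YJM789 (YPD, then 4NQO), and 67 and 10 for the responses of S96 and S96-I775E. With empty values as 0, in 4NQO the counts were 4 for YJM789 against S96, 2 for S96-I775E against S96 and 1 for S96-I775E against YJM789, with 5 for the last in YPD. The responses then gave 9 (YJM789), 16 (S96) and 0 by limma (S96-I775E, where 41 members had an unadjusted p below 0.05), and the difference in response of S96-I775E and S96 gave 7. A pseudocount of 10 gave 12 for YJM789 against S96 in 4NQO.

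The m2 set gave 3 for YJM789 against S96 in 4NQO, 6 for S96-I775E against YJM789 in YPD, 18 and 3 for the responses of S96 and S96-I775E, 7 for the difference in response of S96-I775E and S96, and 2 on the signal for S96-I775E against S96 in 4NQO. It gave 1 bound member in YJM789 in YPD and 6 in S96-I775E in 4NQO, a median rise of 25.5 in YJM789 in YPD, and a median signal of 34.8 there and 46.5 in S96-I775E in YPD. Tested on the ChIP signal in place of the rise, the counts were 33 and 25 for YJM789 against S96, 37 for S96-I775E against S96 in YPD, 13 for S96-I775E against YJM789 in 4NQO, and 39, 37 and 4 for the responses of YJM789, S96 and S96-I775E. A fit of the compared groups alone gave 1 for YJM789 against S96 in 4NQO, 19 and 4 for S96-I775E against YJM789, and 13 for the response of YJM789. Bound members with a fold of at least 2 numbered 2 in YJM789 in 4NQO, 2 in S96 in each medium, 0 and 1 in S96-I775E in YPD and 4NQO. With the peak on the tRNA gene they numbered 8 in YJM789 in 4NQO, 13 and 3 in S96-I775E. The cause was not tested.

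With the replicate block no count moved past 1.5 times, and the calls at YNCG0041W (S96-I775E against S96 in YPD, adjusted p = 0.0625), IMT2 (S96-I775E against YJM789 in 4NQO, 0.0647) and YNCH0002C (response of YJM789, 0.05) were lost. For YJM789 against S96 in YPD the block gave 6 calls.

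Named differences reversed in 9 cases. On the signal SUF8 and YNCG0030C were at −5.60 and −7.93 for YJM789 against S96 in YPD, and YNCG0030C at 6.97 for S96-I775E against YJM789 in YPD. In the m2 set YNCJ0011W was at −0.51 for YJM789 against S96 and 0.86 for S96-I775E against YJM789 in 4NQO, YNCG0030C at 0.76 for S96-I775E against YJM789 in YPD, IMT2 at 0.47 in 4NQO, YNCE0023W at 0.03 for the response of S96-I775E, and YNCJ0002C at 0.34 for the difference in response of YJM789 and S96.

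Leaving out each library in turn gave these ranges for YJM789 against S96, S96-I775E against S96 and S96-I775E against YJM789, in YPD and then 4NQO: 0 to 7 and 4 to 10, 5 to 29 and 1 to 6, 1 to 14 and 2 to 9. The responses of YJM789, S96 and S96-I775E gave 8 to 22, 3 to 12 and 1 to 8, and their differences from S96 gave 2 to 12 for YJM789 and 3 to 12 for S96-I775E. On the signal, in the same order, the ranges were 4 to 58 and 8 to 32, 16 to 48 and 1 to 13, 5 to 37 and 0 to 34, then 26 to 47, 21 to 43 and 0 to 12. Where the signal count was 0 for S96-I775E against YJM789 in 4NQO, without replicate 2 of S96-I775E in 4NQO, 32 members had an unadjusted limma p below 0.05. Bound members ranged from 0 to 0 and 6 to 16 for YJM789, 5 to 44 and 2 to 13 for S96, and 6 to 11 and 3 to 7 for S96-I775E. The group medians of the rise ranged, in the same order of groups, over 28.40 to 29.62, 36.48 to 38.96, 32.03 to 37.59, 35.45 to 40.87, 36.26 to 38.17 and 34.55 to 38.79. Those of the signal ranged over 38.20 to 40.40, 42.30 to 47.55, 49.88 to 59.62, 46.60 to 55.20, 49.50 to 52.75 and 46.58 to 49.72.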
